A study of Homo sapiens with 9 samples.

Results

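The hexosamine pathway was followed in 9 orthotopic mouse thyroid tumors through 8 listed genes, Gfpt2, Gfpt1, Gnpnat1, Pgm3, Uap1, Ogt, Nagk and Amdhd2. Rows of the expression table were found for 7 of these 8 genes among 17369 genes in all, and Ogt was not analysed here. Gfpt2 was chosen by its measured FPKM, which was higher in tumors from adapted cells than in tumors from original cells, so the difference of Gfpt2 from the original tumors is described below without a test. The other genes were listed for their place in the pathway.

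The tumors came from TBP3743 cells, a murine anaplastic thyroid cancer line made from B6129SF1 mice that carried Braf V600E and lacked Trp53, both in the thyroid only. Original cells were injected into the thyroid of B6129SF1 mice (original/B6129SF1), adapted cells into B6129SF1 mice (adapted/B6129SF1) and adapted cells into C57BL/6 mice (adapted/B6), with 3 tumors in each group. All hosts were females injected at 6 weeks of age, and tumors were taken on day 14. The adapted cells were TBP3743 cells recovered after round 3 of passage under the skin of C57BL/6 mice, so they descend from a single line, and cells of both kinds carry the same engineered alleles. Original cells in C57BL/6 mice were not analysed here. The effect of the adapted cells in that host therefore cannot be told apart from that of the host in the comparison of adapted/B6 with original/B6129SF1. GEO's labels name the species as human, whereas the hosts, the cell line, the gene symbols and the genome build are those of the mouse.

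The hexosamine pathway takes a small part of the sugar entering glycolysis and turns it into UDP-GlcNAc, the donor of N-acetylglucosamine for glycoproteins, glycosaminoglycans and the O-GlcNAc mark on nuclear and cytosolic proteins. Its entry step, in which glutamine gives its amide nitrogen to fructose 6-phosphate, is catalysed by glutamine:fructose-6-phosphate amidotransferase (GFAT) and limits the rate. Mammals have 2 GFAT genes, Gfpt1, which is broadly expressed, and Gfpt2, whose expression is more restricted and is known from mesenchymal and neural cells.

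Values are FPKM, fragments scaled by transcript length and library, so levels of different genes can be set side by side. Group means were compared as log2(FPKM + 1) by limma in one model of all tumors, for the 10263 genes that reached 1 FPKM in 3 or more tumors, with Benjamini-Hochberg adjusted p-values. All 7 genes were tested. Log2 fold changes on this scale understate the change of weakly expressed genes. The FPKM of a tumor summed to between 457983 and 540514, and the 13 skeletal muscle marker genes together came to 36410 FPKM in replicate 3 of adapted/B6129SF1, to 5982 in replicate 1 of adapted/B6 and to 730.1 or less in every other tumor. In bulk tumors a larger share of cells that express a gene and more RNA per cell cannot be told apart.

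Gfpt2 was weakly expressed in tumors of original cells and higher in all tumors of adapted cells. In original/B6129SF1 it was 0.592, 1.19 and 1.09 FPKM in replicates 1, 2 and 3. In adapted/B6129SF1 it was 10.2, 8.25 and 11.8 FPKM. In adapted/B6 it was 7.33, 5.43 and 7.79 FPKM. Every adapted tumor in either host was above every original tumor. The group means were 0.956 ± 0.319, 10.1 ± 1.79 and 6.85 ± 1.25 FPKM (SD, n = 3 tumors each). As a ratio of means Gfpt2 was 10.5-fold higher in adapted/B6129SF1 than in original/B6129SF1, and the ratio between single tumors of these groups ran from 6.96 to 20.0. For adapted/B6 the ratio of means was 7.17, with single tumors between 4.58 and 13.2. On the log2(FPKM + 1) scale the differences from original/B6129SF1 were 2.50 (SE 0.19) and 2.01 (SE 0.19), which placed Gfpt2 at rank 46 and rank 63 of the 10263 genes ordered from the largest rise downward. These values restate what put Gfpt2 on the list. Leaving out any 1 tumor kept them between 2.36 and 2.63 for adapted/B6129SF1 and between 1.86 and 2.14 for adapted/B6.

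**Figure D1:**
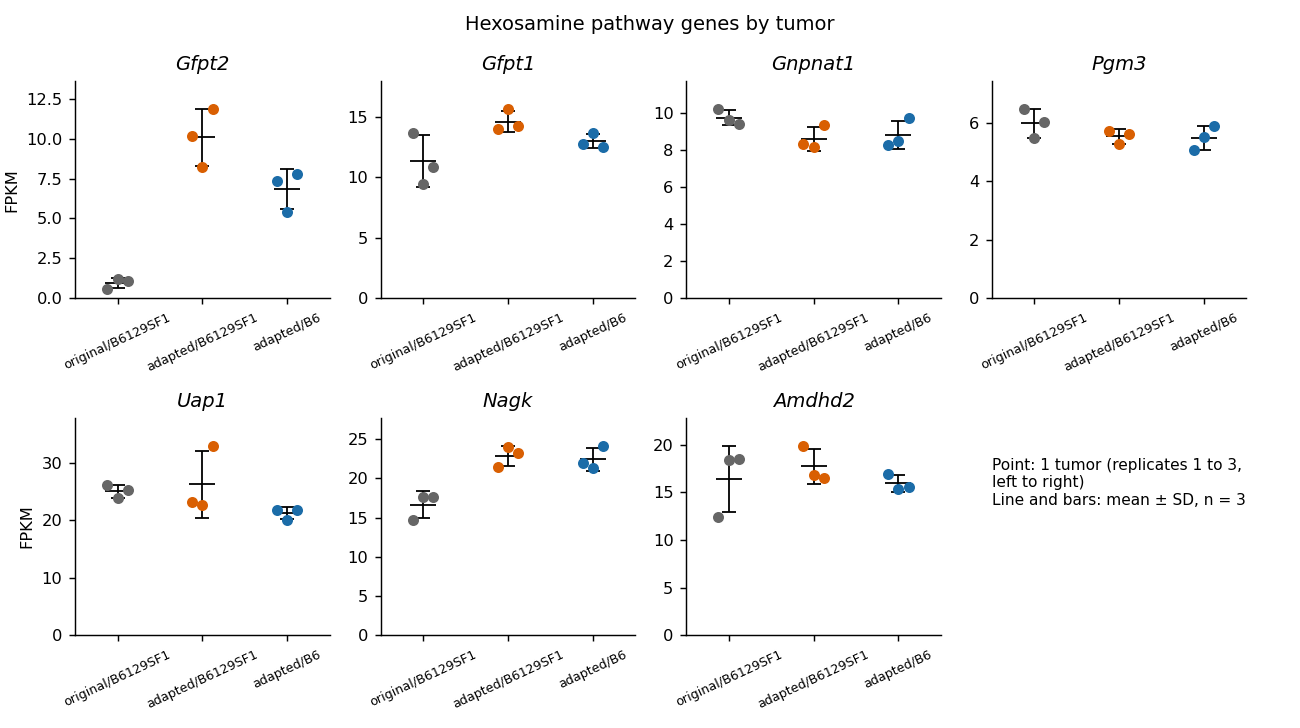
FPKM of the 7 hexosamine pathway genes (y axis, from 0) by group (x axis, original/B6129SF1 first, then both adapted groups), with 1 point per tumor and the mean ± SD of 3 tumors as lines. Gfpt2, chosen for this difference, stays at or below 1.19 FPKM in original/B6129SF1 and at or above 5.43 FPKM in both adapted groups. The other genes were listed for their place in the pathway, and the chosen difference of Gfpt2 is no yardstick for them.

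The comparison of the 2 hosts of adapted cells had no part in the choice of Gfpt2. Each adapted/B6 tumor had less Gfpt2 than each adapted/B6129SF1 tumor, at most 7.79 against at least 8.25 FPKM, and groups failed to overlap in this way for 11.7% of all genes tested. The log2 fold change was -0.50 (SE 0.19, 95% interval -0.92 to -0.07). It did not pass after adjustment over all genes (unadjusted p = 0.0265, adjusted p = 0.773 from limma, and from 0.63 to 0.999 over the alternatives tried). Only 3 genes, or 0.0292% of those tested, passed an adjusted p under 0.05 between these groups.

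Gfpt1, the other GFAT gene, was between 9.43 and 15.6 FPKM in every tumor. It was 13.7, 9.43 and 10.9 FPKM in original/B6129SF1, 13.97, 15.6 and 14.2 FPKM in adapted/B6129SF1, and 12.8, 13.7 and 12.5 FPKM in adapted/B6. The adapted/B6129SF1 tumors lay just above original/B6129SF1, whose replicate 1 overlapped the adapted/B6 tumors. The log2 fold change against original/B6129SF1 was 0.35 in adapted/B6129SF1 (SE 0.13, 95% interval 0.06 to 0.65, adjusted p = 0.124 from limma). In adapted/B6 it was 0.20 (SE 0.13, 95% interval -0.09 to 0.49, adjusted p = 0.388 from limma). Neither passed the threshold. The upper bounds lie under the differences of Gfpt2, which was chosen for its rise, so this restates the choice.

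The share of Gfpt2 in GFAT transcripts restates its choice where original and adapted tumors are set side by side, and is given as a description. Gfpt2 was 4.15%, 11.2% and 9.10% of the summed FPKM of both genes in original/B6129SF1, 42.2%, 34.6% and 45.4% in adapted/B6129SF1, and 36.4%, 28.4% and 38.3% in adapted/B6. The means were 8.14 ± 3.61%, 40.7 ± 5.56% and 34.4 ± 5.27% (SD, n = 3 each). Gfpt1 remained the more abundant of the pair in all 9 tumors. The summed FPKM was 12.3 ± 1.85 in original/B6129SF1, 24.7 ± 1.18 in adapted/B6129SF1 and 19.9 ± 0.635 in adapted/B6 (SD, n = 3 each), and these sums too carry the choice of Gfpt2 with them. Between hosts of adapted cells the Gfpt2 share was lower in adapted/B6 by a difference of -6.31 percentage points, with overlapping tumors (exact permutation test, two-sided, p = 0.3). The summed FPKM of the pair was lower by a difference of -4.83, without overlap (p = 0.1 by the same exact two-sided permutation test, which cannot give a lower value with groups of 3).

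**Figure D2:**
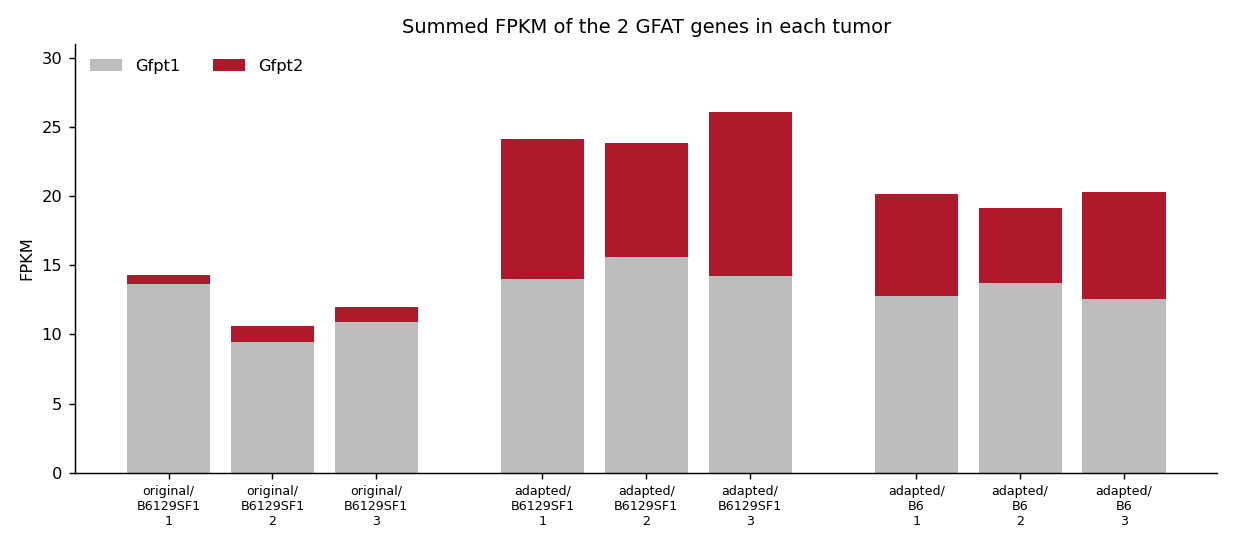
Stacked FPKM of Gfpt1 (grey) and Gfpt2 (red) in each of the 9 tumors (x axis, group and replicate). The red part is 4.15% to 11.2% of the bar in original/B6129SF1 tumors and 28.4% to 45.4% in adapted tumors, and the grey part lies between 9.43 and 15.6 FPKM throughout.

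The 3 enzymes after GFAT carry its product to UDP-GlcNAc, and none of their genes passed the test in any comparison. Gnpnat1, which acetylates glucosamine 6-phosphate, was between 9.43 and 10.2 FPKM in original/B6129SF1, between 8.16 and 9.34 in adapted/B6129SF1 and between 8.26 and 9.71 in adapted/B6. Its log2 fold changes against original/B6129SF1 were -0.17 (95% interval -0.39 to 0.06, adjusted p = 0.321 from limma) in adapted/B6129SF1 and -0.13 (95% interval -0.36 to 0.09, adjusted p = 0.455) in adapted/B6. Pgm3, the phosphoacetylglucosamine mutase, was the weakest of the 3, between 5.08 and 6.46 FPKM over all tumors. Its log2 fold changes were -0.09 (95% interval -0.33 to 0.14) and -0.10 (95% interval -0.34 to 0.13), with adjusted p = 0.592 and 0.589 from limma. These intervals leave room for modest differences in either direction. The difference of Gfpt2 was chosen for its size and so gives no yardstick for them.

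Uap1 encodes the pyrophosphorylase that makes UDP-GlcNAc and was the most abundant of the 3. It was 26.1, 23.9 and 25.3 FPKM in original/B6129SF1, 23.2, 22.7 and 33.0 FPKM in adapted/B6129SF1, and 21.8, 20.0 and 21.8 FPKM in adapted/B6. The highest value was that of adapted/B6129SF1 replicate 3, the tumor with the most muscle transcripts, whose part in it was not tested. The 3 adapted/B6 tumors were below all tumors of the other groups. The log2 fold change of adapted/B6 was -0.23 against original/B6129SF1 (95% interval -0.55 to 0.08, adjusted p = 0.348 from limma) and -0.28 against adapted/B6129SF1 (95% interval -0.59 to 0.04, adjusted p = 0.821 from limma). For adapted/B6129SF1 against original/B6129SF1 it was 0.04 (adjusted p = 0.871 from limma), and without adapted/B6129SF1 replicate 3 it was -0.12.

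Salvage enzymes feed or drain the same pool from the side. Nagk, the kinase that returns free N-acetylglucosamine from degraded glycans to the pathway, was higher in tumors of adapted cells. It was 14.7, 17.6 and 17.7 FPKM in original/B6129SF1, 21.5, 23.9 and 23.3 FPKM in adapted/B6129SF1, and 21.9, 21.3 and 24.1 FPKM in adapted/B6. All adapted tumors were above all original tumors, and the adapted groups overlapped one another. Nagk rose by 0.44 on the log2 scale in adapted/B6129SF1 (SE 0.10, 95% interval 0.21 to 0.67, adjusted p = 0.0332 from limma) and by 0.41 in adapted/B6 (SE 0.10, 95% interval 0.18 to 0.64, adjusted p = 0.0471 from limma), or 1.37-fold and 1.35-fold as ratios of means. Both calls were close to the threshold. With each tumor left out in turn, the adjusted p ran from 0.0452 to 0.0995 in adapted/B6129SF1, where the call was lost in 6 of 9 fits, and from 0.048 to 0.17 in adapted/B6, where it was lost in 8 of 9. With the replicate number as a block it was 0.0563 and 0.0698. The direction was the same in all of these fits.

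Amdhd2 encodes the deacetylase that works against Gnpnat1 on N-acetylglucosamine 6-phosphate. It was 12.4, 18.4 and 18.5 FPKM in original/B6129SF1, 19.9, 16.9 and 16.5 FPKM in adapted/B6129SF1, and 17.0, 15.3 and 15.6 FPKM in adapted/B6. The groups overlapped in every comparison. Its log2 fold changes against original/B6129SF1 were 0.12 (95% interval -0.23 to 0.47, adjusted p = 0.646 from limma) in adapted/B6129SF1 and -0.02 (95% interval -0.37 to 0.33, adjusted p = 0.953) in adapted/B6.

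Of the 6 genes other than Gfpt2, 1 was higher and 0 were lower in adapted/B6129SF1 than in original/B6129SF1 at an adjusted p under 0.05, beside 8.28% of all genes tested (4.37% higher and 3.92% lower), and 0 also passed an absolute log2 fold change of 1, beside 3.22% of all genes. In adapted/B6 the counts were again 1 and 0, beside 6.75% of all genes (3.99% higher and 2.77% lower), and 0 passed the fold change threshold, beside 3.09%. Tumors did not overlap for 3 of the 6 genes in adapted/B6129SF1, beside 29.6% of all genes, and for 2 of the 6 in adapted/B6, beside 32.8%. Both comparisons use the same original/B6129SF1 tumors. The median log2 fold change of the 6 genes was 0.08 in adapted/B6129SF1 and -0.06 in adapted/B6, against -0.03 and -0.03 for all genes. Between adapted/B6 and adapted/B6129SF1, 0 of the 6 passed by limma, and 0 had an unadjusted p under 0.05, which 643 of the 10263 genes had. Tumors did not overlap for 2 of the 6, Gfpt1 and Uap1, beside 11.7% of all genes. The median was -0.08, with 1 of the 6 log2 fold changes above 0, beside 51.5% of all genes.

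**Figure D3:**
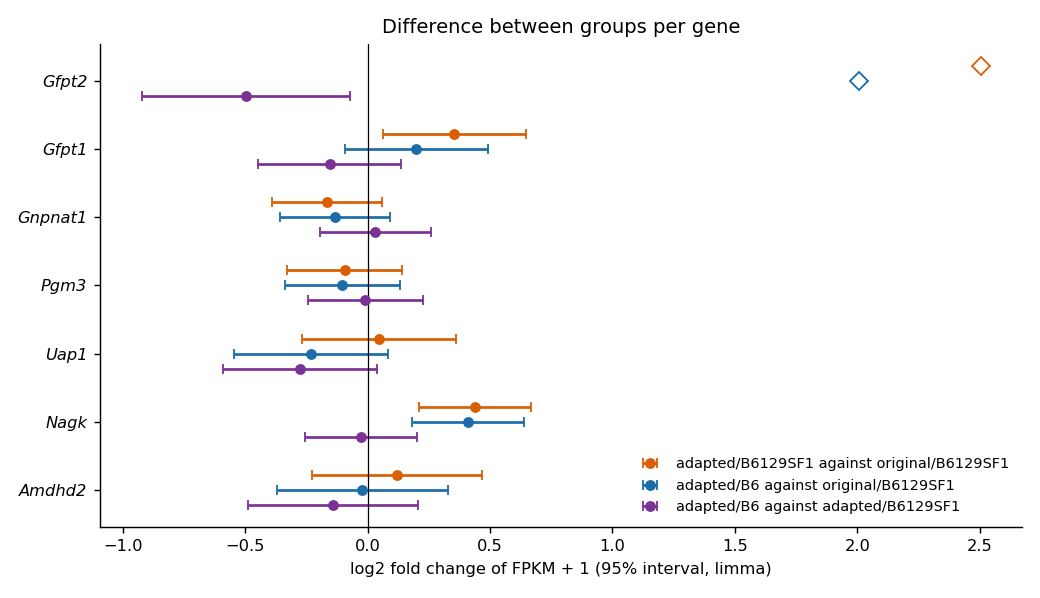
Log2 fold change of FPKM + 1 (x axis) for the 7 genes (y axis) in the 3 comparisons of groups, with 95% intervals from limma. Open diamonds mark Gfpt2 against original/B6129SF1, shown without an interval because that difference chose the gene. Nagk has both of its intervals against original/B6129SF1 above 0, and Gfpt1 has that in adapted/B6129SF1.

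The order of transcript levels within the pathway was much the same in each group except for Gfpt2. In original/B6129SF1 the order of mean FPKM was Uap1 (25.1), Nagk (16.7), Amdhd2 (16.5), Gfpt1 (11.3), Gnpnat1 (9.76), Pgm3 (5.98) and Gfpt2 (0.956). The ranges of Nagk and Amdhd2, of Amdhd2 and Gfpt1 and of Gfpt1 and Gnpnat1 overlapped there, whereas Gfpt2 was below all others in every tumor. In adapted/B6129SF1 Gfpt2 stood below Gfpt1 at 10.1 FPKM, overlapping Gnpnat1 at 8.60 and above Pgm3 at 5.53. In adapted/B6 it stood below Gnpnat1 at 8.82 FPKM without overlap, and overlapped Pgm3 at 5.49 FPKM. Nagk, at 22.4 FPKM, and Uap1, at 21.2 FPKM, overlapped at the head of that group.

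To place these genes among their neighbours, 82 genes in 7 lists were followed, covering substrate supply, salvage and breakdown, the sialic acid branch, N-glycan, glycosaminoglycan and other users of UDP-GlcNAc, and the unfolded protein response. Rows were found for 75 of them and 71 were tested. Against original/B6129SF1, 1 was higher and 4 were lower in adapted/B6129SF1, and 1 was higher and 4 were lower in adapted/B6, or 7.04% in each comparison beside the 8.28% and 6.75% of all genes given above. Between adapted/B6 and adapted/B6129SF1, 0 passed. The counts of 5 were unstable. They ran from 0 to 8 in adapted/B6129SF1 and from 1 to 7 in adapted/B6 when each tumor was left out in turn, the 0 without either original/B6129SF1 replicate 1 or replicate 3, and the 1 without adapted/B6 replicate 3.

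Among the 16 substrate supply genes, Pfkp rose and Acly fell in both comparisons with original/B6129SF1. Pfkp, the platelet-type phosphofructokinase that commits fructose 6-phosphate to glycolysis and so competes for the GFAT substrate, was 10.7, 10.1 and 11.8 FPKM in original/B6129SF1. It was 23.8, 15.6 and 19.0 FPKM in adapted/B6129SF1 and 19.4, 25.6 and 24.6 FPKM in adapted/B6. It rose by 0.77 (SE 0.16, adjusted p = 0.0251 from limma) and 1.02 (SE 0.16, adjusted p = 0.00846), without overlap of tumors. Leaving out 1 tumor lost the call in 5 of 9 fits in adapted/B6129SF1 (adjusted p up to 0.0781 from limma). In adapted/B6 it was lost in 1 of 9 (up to 0.0507). Under the other settings the adjusted p from limma reached 0.0621 in adapted/B6129SF1 and 0.0354 in adapted/B6.

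Acly, ATP citrate lyase, makes cytosolic acetyl-CoA, the kind of acetyl donor that Gnpnat1 uses. It was 93.3, 72.4 and 92.3 FPKM in original/B6129SF1, 47.5, 59.2 and 51.2 FPKM in adapted/B6129SF1, and 48.3, 46.0 and 50.1 FPKM in adapted/B6. All adapted tumors were below all original tumors. It fell by 0.69 (SE 0.12, adjusted p = 0.015 from limma) and 0.82 (SE 0.12, adjusted p = 0.00743 from limma). The call in adapted/B6 was kept in all 9 fits without 1 tumor, with an adjusted p of at most 0.0385, and that in adapted/B6129SF1 was lost in 2.

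Glul, glutamine synthetase, ranged from 76.9 to 142 FPKM in original/B6129SF1, from 122 to 285 in adapted/B6129SF1 and from 61.3 to 121 in adapted/B6, and did not pass in any comparison. The glucose transporter gene Slc2a1 had log2 fold changes of -0.43 and -0.08 against original/B6129SF1, and the hexokinase gene Hk2 of 0.53 and 0.74, with adjusted p-values of 0.315 and 0.889 for Slc2a1 and of 0.4 and 0.263 for Hk2 from limma. These 3 genes were named after their values were seen.

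In each list downstream of the pathway 0 or 1 genes passed per comparison with original/B6129SF1, beside 8.28% and 6.75% of all genes. With lists this small, such counts cannot be told from those shares. Of 8 salvage and breakdown genes tested 0 passed in either comparison, and 5 of 8 had a log2 fold change above 0 in each, beside 45.7% and 46.1% of all genes. Of 7 sialic acid genes tested, Slc17a5, the lysosomal sialic acid exporter, fell by 0.54 in adapted/B6 (adjusted p = 0.0201 from limma), a call lost in 5 of 9 fits without 1 tumor (adjusted p up to 0.0945) and with scaling without muscle genes (0.0686). In adapted/B6129SF1 its log2 fold change was -0.32 (adjusted p = 0.0962 from limma). Of 10 N-glycan genes tested, Alg14, a part of the transferase that adds the second N-acetylglucosamine to the lipid-linked precursor, fell by 0.38 in adapted/B6129SF1 (adjusted p = 0.0208 from limma). That call was lost in 3 of 9 fits without 1 tumor (adjusted p up to 0.074), with scaling without muscle genes (0.069), with only the groups compared (0.0667) and with a replicate block (0.0582). In adapted/B6 its log2 fold change was -0.29 (adjusted p = 0.0526 from limma). The N-glycan list had medians of -0.25 and -0.14, against -0.03 and -0.03 for all genes. In each comparison 6 of its 10 genes were below 0 and 4 above, beside 45.7% and 46.1% of all genes above. Tumors did not overlap, in either direction, for 8 of the 10 in adapted/B6129SF1, beside 29.6% of all genes. In adapted/B6 they did not overlap for 5 of the 10, beside 32.8%. Of 12 glycosaminoglycan genes and 7 other users tested, 0 passed in any comparison. The hyaluronan synthase genes Has2 and Has3 were under the filter on low values, Has2 at 1.17 FPKM or less and Has3 at 0.659 or less in every tumor.

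The unfolded protein response is a textbook inducer of hexosamine pathway genes through Xbp1. Of its 11 genes tested, 0 were higher in either comparison with original/B6129SF1, beside 4.37% and 3.99% of all genes. In each, 1 was lower, beside 3.92% and 2.77%. The log2 fold change was above 0 for 5 of the 11 in each, beside 45.7% and 46.1% of all genes. It ran from -0.56 to 0.69 in adapted/B6129SF1 and from -0.57 to 0.47 in adapted/B6. The part of this response in the Gfpt2 levels was not tested. Atf6, a stress sensor of the endoplasmic reticulum, fell by 0.56 in adapted/B6129SF1 (adjusted p = 0.0299 from limma), and Dnajc3, a co-chaperone, fell by 0.57 in adapted/B6 (adjusted p = 0.0221 from limma). For Xbp1 itself the log2 fold change was 0.22 in adapted/B6129SF1 (adjusted p = 0.354 from limma) and -0.03 in adapted/B6 (adjusted p = 0.917). Leaving out 1 tumor lost the call of Atf6 in 6 of 9 fits (adjusted p up to 0.105 from limma) and that of Dnajc3 in 5 of 9 (up to 0.0775). Under the other settings the adjusted p from limma reached 0.101 for Atf6 and 0.0513 for Dnajc3.

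**Figure D4:**
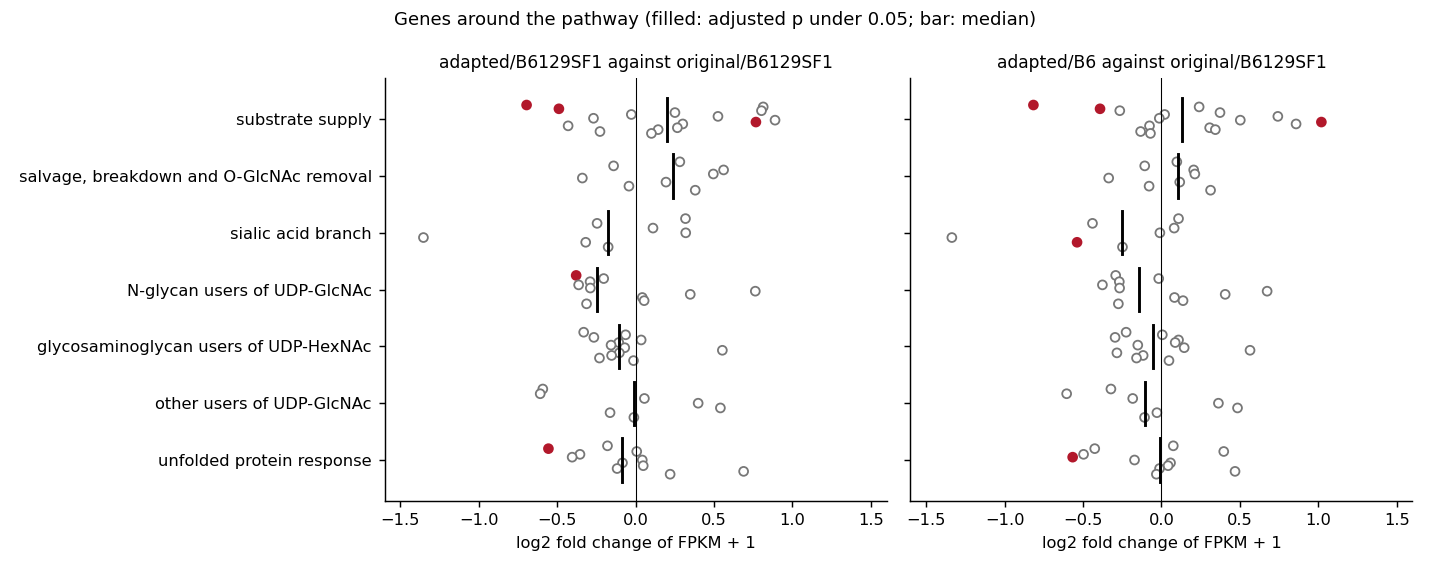
Log2 fold change of FPKM + 1 against original/B6129SF1 (x axis) for the genes tested in 7 lists around the hexosamine pathway (y axis), in adapted/B6129SF1 (left) and adapted/B6 (right), with 1 point per gene, filled where the adjusted p was under 0.05, and a bar at the list median. In each panel 5 of 71 genes are filled, and 4 of these are below 0.

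The genes whose levels followed Gfpt2 most closely were found by Pearson's r of log2(FPKM + 1) over the 9 tumors, as a description. All tumors share the normalization, and the gap between original and adapted tumors dominates such an r. Kctd15 had the highest value (r = 0.99), followed by Cmtm3 (0.98), Kcnmb4 (0.98), Wdr25 (0.97) and Fam78b (0.97). Kctd15 was 0.403, 1.05 and 0.934 FPKM in original/B6129SF1, 4.65, 4.11 and 5.37 FPKM in adapted/B6129SF1, and 4.47, 3.10 and 4.54 FPKM in adapted/B6. Kcnmb4 and Fam78b reached 1 FPKM in the 6 adapted tumors only, so they entered the test through the groups in which they were high. Kctd15 reached it in these tumors and, among the original ones, in replicate 2 alone, at 1.05 FPKM, so the same holds for it.

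Taken as deviations from the group means, which remove that gap, the highest values were those of P2rx4 (0.99), Alox5ap (0.98), Arhgef1 (0.98), Ccdc115 (0.97) and Kctd15 (0.97). Kctd15 is on both lists, which were picked from the same 9 tumors, so neither is independent support for the other. Within the pathway, r with Gfpt2 over the 9 tumors was 0.94 for Nagk, 0.62 for Gfpt1, 0.29 for Amdhd2, -0.05 for Uap1, -0.55 for Pgm3 and -0.65 for Gnpnat1. On deviations from the group means it was 0.59 for Nagk, 0.58 for Amdhd2, 0.48 for Uap1, 0.33 for Gnpnat1, -0.16 for Pgm3 and -0.80 for Gfpt1.

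**Figure D5:**
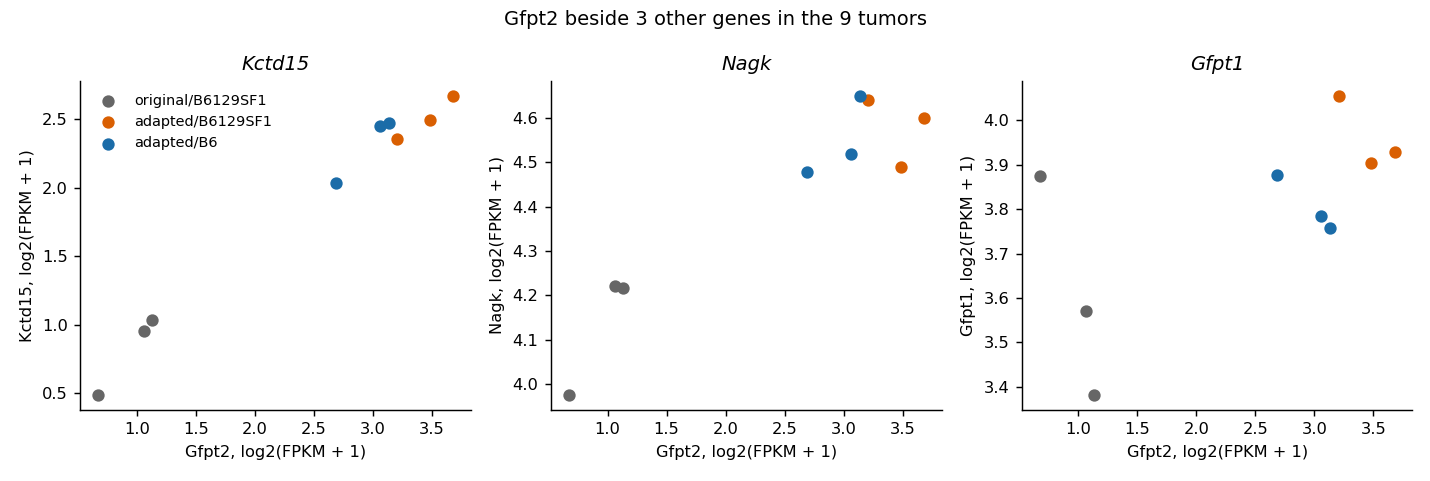
Log2(FPKM + 1) of Kctd15, Nagk and Gfpt1 (y axes, not from 0) against that of Gfpt2 (x axis) in the 9 tumors, coloured by group. Kctd15, picked for its likeness to Gfpt2 in these same tumors, follows it across and within groups. Nagk separates original from adapted tumors, and Gfpt1 shows its lowest values in 2 of the original tumors.

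Markers of host cells differed between the tumors as well. The summed FPKM of 10 fibroblast genes ran from 1004 to 1268 in original/B6129SF1, from 1116 to 1891 in adapted/B6129SF1 and from 1239 to 1457 in adapted/B6, and 0 of the 10 were at 0 in any group. Of these 10 genes, 1 rose in adapted/B6129SF1 and 2 rose in adapted/B6, beside 4.37% and 3.99% of all genes, with 0 lower in either. Fap rose in both (1.21 and 0.89, adjusted p = 0.0161 and 0.0479 from limma) and Thy1 in adapted/B6 (1.54, adjusted p = 0.00527 from limma). Which cells carried Thy1 was not tested, and adapted/B6 also had the highest T and NK cell sums, given below. The log2 fold change was above 0 for 7 and below 0 for 3 of the 10 in adapted/B6129SF1. In adapted/B6 it was above 0 for 6 and below 0 for 4. Of all genes, 45.7% and 46.1% were above 0. Among those below 0, that of Lum was -0.71 and -1.29 and that of Dcn -0.39 and -0.63, without passing. The sum of 9 macrophage genes, with 1 more listed gene not analysed here, ran from 1339 to 1839, from 1937 to 2449 and from 1177 to 2646, with 0 at 0. The sum of 10 T and NK cell genes ran from 8.77 to 19.9, from 19.9 to 55.3 and from 58.9 to 89.0, with 0 at 0. The sum of 13 skeletal muscle genes ran from 21.6 to 127, from 17.1 to 36410 and from 4.16 to 5982. Beside the same shares of all genes, 2 and 3 of 9 T and NK cell genes tested rose in adapted/B6129SF1 and adapted/B6. All 9 were above 0 in both. Cd3d, Cd3e, Cd8b1 and Cd4 reached 1 FPKM in 5 tumors, all of them adapted. Cd8a reached it in 6, of which only original/B6129SF1 replicate 1, at 1.01 FPKM, was not adapted. These genes entered the test through the groups in which they were high, so their direction carries little weight. Of the 9 macrophage genes 0 and 1 rose, and of the 13 muscle genes 0 and 0. In these 3 lists 0 genes were called lower. The T and NK cell sum in adapted/B6 and the macrophage sum in adapted/B6129SF1 lay above the range of original/B6129SF1, the other sums overlapped it or reached its upper end, and their part in the Gfpt2 levels was not tested. Within each group the tumor with the lowest macrophage sum also had the lowest Gfpt2, a match seen only after the values were known and not tested. These tumors had macrophage sums of 1339, 1937 and 1177 FPKM and Gfpt2 levels of 0.592, 8.25 and 5.43 FPKM, and in original/B6129SF1 and adapted/B6129SF1 the other tumors followed the same order. In adapted/B6 replicates 1 and 3 were in the reverse order, with macrophage sums of 2646 and 2474 and Gfpt2 of 7.33 and 7.79 FPKM. Across groups the order did not hold. The 1177 FPKM of adapted/B6 replicate 2 was the lowest of all 9 tumors, and its Gfpt2 was above every original/B6129SF1 tumor. Adapted/B6129SF1 replicate 3 had the highest muscle and fibroblast sums of all tumors, the highest macrophage sum of its group, 2449 FPKM, and the highest Gfpt2, 11.8 FPKM.

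The labels call these tumors epithelial cancer. Of 12 thyroid and epithelial genes, Nkx2-1, a thyroid transcription factor, was between 23.5 and 44.5 FPKM in all tumors, while Pax8 was at 1.61 FPKM or less and Tshr and Slc5a5 were at 0.142 FPKM or less. The summed level of the list, most of it from Krt8 and Krt18, ran from 649.8 to 1011 FPKM in original/B6129SF1, from 290 to 581 in adapted/B6129SF1 and from 428 to 478 in adapted/B6, without overlap between original and adapted tumors. Krt8, an epithelial keratin, was the 1 gene of the list that passed, and it fell by 1.32 and 1.12 (adjusted p = 0.0189 and 0.0346 from limma). Foxe1 was at 0.248 FPKM or less in every tumor. Tg, thyroglobulin, was 0.0153, 30.2 and 12.2 FPKM in original/B6129SF1, 0.0431, 0.0382 and 1.20 FPKM in adapted/B6129SF1, and 31.01, 11.3 and 0.358 FPKM in adapted/B6. The part of this marker difference in the Gfpt2 levels was not tested.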

How the data were processed

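RNA of 9 tumors was sequenced by the authors as paired-end reads, which, per the labels and the study's methods, were checked with FastQC, aligned to mm10 with HISAT2 and normalized with Cuffnorm. The deposited values are FPKM, 1 column per tumor, made by the authors. The annotation, the Cuffnorm scaling and any gene filter are not given in the sources used here. Groups and replicate numbers come from the sample titles. Nothing in the labels or the study's methods pairs the animals. The p-values set differences between groups against the spread between tumors. Adapted cells descend from a single line, so that spread does not cover differences between separate adaptations.

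FPKM values are not counts, so limma 3.58.1 in R 4.3.3 was run on log2(FPKM + 1) in one model of the 3 groups, with eBayes set to follow the mean-variance trend, for genes that reached 1 FPKM in 3 or more tumors. P-values were adjusted over all genes tested. Single values were compared by exact permutation tests (scipy 1.17.1). The procedure was tested on simulated data. The pathway genes, the lists and the tests were chosen with earlier results of these data known. Genes of the lists were named by a fixed rule, at most the 2 largest rises and 2 largest falls past the threshold, and the 5 genes most like Gfpt2 by each measure. Some genes of the lists enter the counts but are not reported here by name.

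Absolute depth is unknown. Relative depth, read from the most common ratio of low FPKM values between tumors and therefore approximate, ran from 0.962 to 1.35 of original/B6129SF1 replicate 1. At most 0.0487% of tested genes had identical values in a pair of tumors. No mouse sequence or coordinate was used here. Alternatives were another pseudocount, filters, scalings, spread models, only the groups compared, a replicate block and leaving out each tumor.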

Additional observations from a re-analysis of the deposited data

How the results depend on the processing

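Absolute depth is unknown, so what it limits was not measured. For adapted/B6129SF1 against original/B6129SF1, adapted/B6 against original/B6129SF1 and adapted/B6 against adapted/B6129SF1, in that order throughout, 850, 693 and 3 genes passed. With the fold change threshold added, 330 and 317 passed in the first and second. With only the groups compared, 449 passed in the first and 0 in the third, and with no filter on low values 1 passed in the third. Whether replicate numbers pair the tumors cannot be settled with 3 tumors per group. Same-numbered deviations correlated at -0.326 to 0.0262, 0.0691 to 0.304 and -0.388 to 0.614. A fit with a replicate block passed 444, 388 and 0 genes. Leaving out each tumor gave 225 to 808, 199 to 798 and 0 to 6. The first count fell to 339 and 225 without original/B6129SF1 replicates 1 and 3, and the second to 334 and 264 without these and to 199 without adapted/B6 replicate 3.

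Of the 6 pathway genes other than Gfpt2, the 1 called was Nagk. The count was 0 with only the groups compared and with the block in both comparisons with original/B6129SF1, and in adapted/B6 also with no filter, with scaling without skeletal muscle genes and with no mean-variance trend. It was 0 to 1 in each without 1 tumor. For the 7 lists, whose alternatives were chosen after seeing the data, 5 and 5 genes passed. The counts were 2 and 3 with scaling without muscle genes, 1 in adapted/B6129SF1 with only the groups compared, and 3 and 3 with the block. Leaving out each tumor gave 0 to 8 and 1 to 7. In adapted/B6129SF1 they were 0 without original/B6129SF1 replicate 1 or 3, 3 and 2 without adapted/B6129SF1 replicates 1 and 2, and 8 without its replicate 3. In adapted/B6 they were 2 without original/B6129SF1 replicate 1 or 3 and 3, 2 and 1 without adapted/B6 replicates 1, 2 and 3.

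With a pseudocount of 0.1 the Gfpt2 log2 fold changes were 3.31 and 2.75. The sign turned only for values near 0. Amdhd2 in adapted/B6 was 0.0042 with scaling without muscle genes. Without 1 tumor, Amdhd2 ran from -0.0574 to 0.21 and from -0.20 to 0.0700 against original/B6129SF1, and Uap1 from -0.12 to 0.14 in adapted/B6129SF1. Between adapted/B6 and adapted/B6129SF1, Pgm3 ran from -0.0537 to 0.0373, Gnpnat1 from -0.0319 to 0.0860 and Nagk from -0.0787 to 0.00747. For single genes, 232 of 256 values kept direction and side of the threshold under the other settings, and 225 of 288 without 1 tumor. A call was lost in 22 of the 256 and in 50 of the 288. The totals include values that were not called to begin with, so they overstate how stable the calls were. Where not shown by fewer samples or genes in the fit, the cause was not tested.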

Other observations

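In the original/B6129SF1 group, replicate 1 stood at one end for every pathway gene measured, a pattern seen only after the values were known. It had the most of the group for Gfpt1 (13.7 FPKM), Gnpnat1 (10.2), Pgm3 (6.46) and Uap1 (26.1). It had the least for Gfpt2 (0.592), Nagk (14.7) and Amdhd2 (12.4). Gfpt2 belongs to the main route as Gfpt1 does, so the ends do not divide by route. With 3 tumors no test of this pattern was made.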
